A study of Homo sapiens with 6 samples.

Results

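The 55 genes described here encode proteins that find broken or crosslinked DNA, halt the cell cycle and repair the break. They were taken as the rows whose gene symbol stood in a set list of 55 names, and all 55 were found among the 36932 genes that had a symbol of their own. The list falls into 18 genes of break sensing and checkpoint signalling, 16 of homologous recombination, 14 of the Fanconi pathway and crosslink repair, and 7 of end joining. The RNA came from MDA-MB-231, a line of human breast cancer of the triple negative type that carries a mutant p53. Its messenger RNA gave 6 libraries. Control cells, colony 1 and colony 2 each gave 2, and both colonies carry the DDX18 knockdown. DDX18 is a nucleolar DEAD-box RNA helicase, and the stated aim was to look at the transcriptome after its loss. The sources used here do not give how DDX18 was knocked down or what the control cells received. The knockdown is represented by a pair of colonies, and each colony by 2 libraries that the labels call replicates without saying that they were separate cultures.

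A break with both strands cut is bound by the MRN complex of MRE11, RAD50 and NBN, which recruits the kinase ATM, while single-stranded DNA calls in ATR with ATRIP. These kinases act through CHEK1 and CHEK2 to stop the cycle and mark the flanking chromatin through the histone H2AX. In S and G2 phase the ends are cut back and the gap is copied from the sister chromatid by homologous recombination, in which BRCA1, PALB2 and BRCA2 act. In any phase the ends may be held by the Ku proteins and rejoined, and the Fanconi proteins unhook crosslinks between the strands and pass the break on to recombination. Many recombination, Fanconi and checkpoint genes are transcribed mainly in dividing cells, under the E2F factors that switch on S phase genes.

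The rows of the table summed to 956008 to 984969 CPM a library, and divided by the smallest step of the values this gave 8843847 to 11902437 reads in those rows. DDX18 was at 78.8 and 91.7 CPM in the controls, 17.6 and 14 CPM in colony 1 and 14.7 and 15.1 CPM in colony 2. The log2 change was −2.399 (SE 0.11, adjusted p = 3.88e-15) by limma with Benjamini-Hochberg adjustment. All 4 knockdown libraries were below both controls. Of the 5 markers of the line, VIM, AXL and CAV1 were not called, while CD44 rose by 0.74 (adjusted p = 3.98e-12) and ZEB1 by 0.45 (adjusted p = 7.16e-06). ESR1 was at 0 to 0.201 CPM and PGR at 0 in every library, and ERBB2 was at 102 to 134 CPM, with a log2 change of −0.26 (adjusted p = 0.00234). The 9 luminal breast markers, mostly keratins in level, summed to 1972 to 2047 CPM in the controls and 1255 to 1370.2 CPM after knockdown. Among them KRT8 was at −0.65 (adjusted p = 8.42e-11), KRT18 at −0.51 (adjusted p = 3.89e-08) and KRT19 at −0.64 (adjusted p = 1.20e-09), CDH1 went the other way at 0.69 (adjusted p = 0.00827), and GATA3 and EPCAM were not called. Of the other cell types, 4 leukocyte genes summed to 0.324 to 1.5 CPM and the endothelial VWF and CDH5 to at most 0.409 CPM. The 3 fibroblast genes summed to 14.4 to 19.9 CPM, with LUM at −1.68 (adjusted p = 1.95e-07), PDGFRB at 0.40 (adjusted p = 0.0376) and DCN at 0 to 0.102 CPM. The part of these shifts in the results was not tested.

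Among the break repair, Fanconi and checkpoint genes, 29 were higher after DDX18 knockdown and 0 were lower. NBN, the sensor subunit of the MRN complex, rose 2.61-fold, further than any other member, and the homologous recombination class had the largest median change of the 4 classes, with BRCA2, RBBP8, RAD51D, BLM and RAD54L in front. Of 54 members tested, 10 of 18 in break sensing and checkpoint, 10 of 16 in homologous recombination, 8 of 14 in the Fanconi class and 1 of 6 in end joining passed the test. The median log2 change was 0.21, 0.52, 0.23 and 0.064 in these classes, 0.25 over all members tested and 0.0051 over the 13675 genes tested. Without control replicate 1 the homologous recombination and Fanconi medians were 0.35 and 0.12 and that of end joining 0.10, and without colony 2 replicate 2 that of end joining was 0.042. Levels are in CPM, the authors' reads scaled to library size, and changes are differences of log2(CPM + 1) between the mean of both colonies and control. A gene counts as having risen or fallen where the limma p, adjusted over all genes tested, was under 0.05. By that rule 23.2% of all genes tested were higher and 21.5% lower. The members' share of higher calls was 53.7% against 23.2% and their share of lower calls was 0 against 21.5%. The members were chosen with earlier results of these data known, so this contrast is a description and not a test. Without adjustment, at p under 0.05, 30 members were higher and 0 lower. All 4 knockdown libraries lay above both controls for 29 of the 54 members and below both for 2, against 27.8% and 25.8% of all genes tested. Each tested member had a control mean of at least 3.29 CPM, so none passed the minimum of 1 CPM through the knockdown libraries alone. NHEJ1, the XLF scaffold of end joining, was the member not tested, at 0.300 to 0.733 CPM in the 6 libraries.

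**Figure D1:**
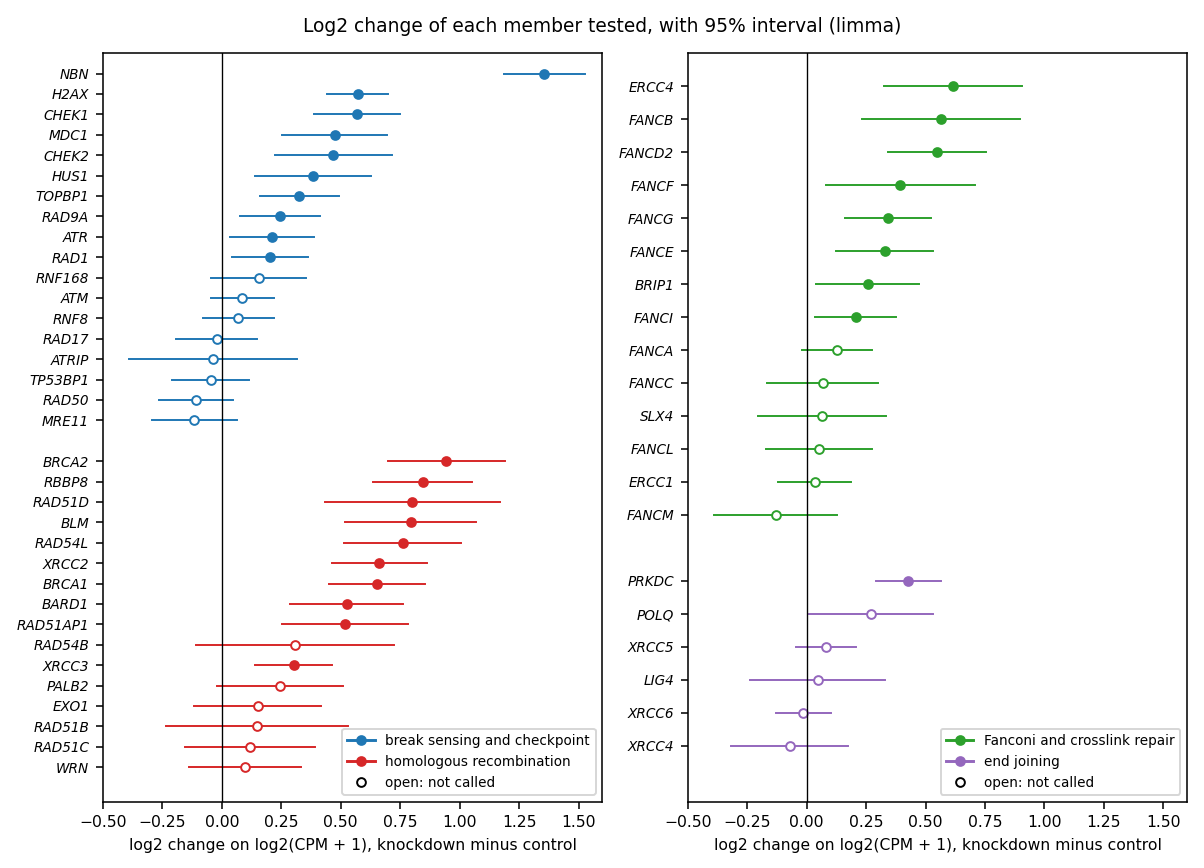
Log2 change on the log2(CPM + 1) scale, knockdown (mean of both colonies) minus control, of the 54 members tested, in 4 classes; points are limma estimates, lines their 95% intervals, and filled points were called at an adjusted p under 0.05. NBN stands apart at 1.36, and no filled point lies below 0.

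The changes came with a rise of cell cycle genes. Over all genes tested 23.2% were higher and 21.5% lower. All 22 mitosis genes of a list set beside the members rose (median log2 change 0.67), and 21 of 27 S phase genes rose and 0 fell (median 0.39), with 1 lower by limma at an unadjusted p under 0.05. The lowest gene of both lists was RRM2, a subunit of ribonucleotide reductase, at −0.20 (adjusted p = 0.0543). The summed CPM of the mitosis list was 1.68 to 1.82 times the control mean in the knockdown libraries and that of the S phase list 1.23 to 1.42 times. The corresponding range was 1.37 to 1.5 times for the homologous recombination genes, 1.16 to 1.23 for break sensing and checkpoint, 1.1 to 1.19 for the Fanconi class and 1.06 to 1.22 for end joining. The controls also differed from each other in this respect. The summed CPM of control replicate 1 was 0.916 times the mean of both for homologous recombination, 0.931 times for S phase and 0.937 times for mitosis genes, and control replicate 2 lay as far above it. The part of the cell cycle in the members' changes was not tested, and a larger share of cells in S or G2 phase and more RNA per such cell cannot be told apart in bulk RNA.

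**Figure D2:**
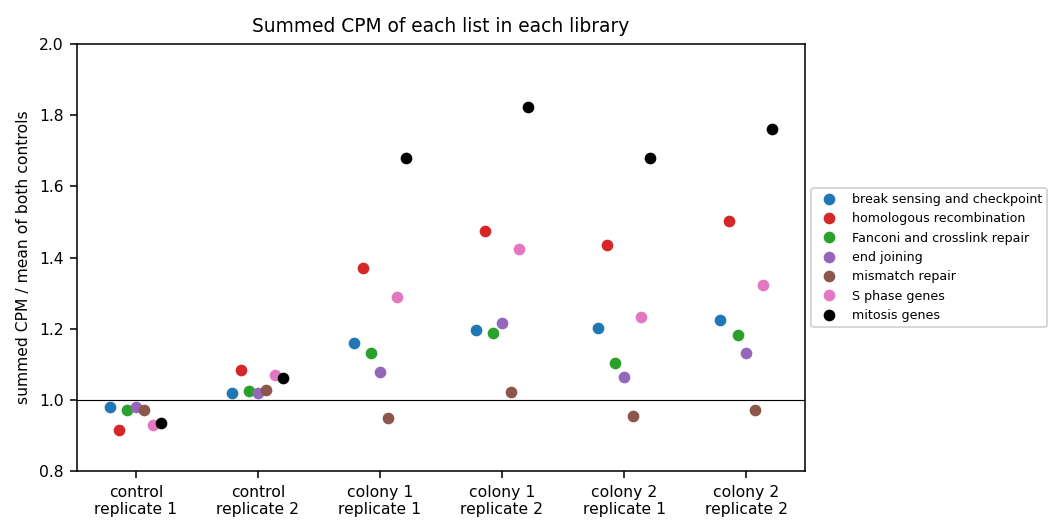
Summed CPM of each gene list in each library, divided by the mean of both controls, for the 4 member classes and for the mismatch repair, S phase and mitosis lists. The homologous recombination points of the knockdown libraries lie at 1.37 to 1.5, between the end joining genes (1.06 to 1.22) and the mitosis genes (1.68 to 1.82).

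Promoters of the members were searched for short motifs of cell cycle genes. RefSeq promoters of 300 bases, from 250 before to 50 after the start site on GRCh38.p14, were matched for 48 of the 55 members. They were searched on both strands for the cores TTGGCGC and TTCCCGC, for TTTGAA, the core of the cell cycle homology region of G2 and mitosis promoters, and for CCAAT, the box bound by NF-Y. Read on the other strand CCAAT is ATTGG, which can share the letters TTGG with the core TTGGCGC. At least 1 of the E2F-like cores was found in 14 of 25 (56%) of the members called higher, in 5 of 22 (22.7%) of those tested and not called, in 1529 of 10606 (14.4%) of the genes tested and in 2547 of 27305 (9.33%) of all promoters of that length. By class it was 7 of 14 (50%) in homologous recombination, 7 of 13 (53.8%) in the Fanconi class, 3 of 16 (18.8%) in break sensing and checkpoint and 2 of 5 (40%) in end joining. TTTGAA was found in 3 of 25 (12%) of the members called higher and 3 of 22 (13.6%) of those not called, and CCAAT in 11 of 25 (44%) and 10 of 22 (45.5%). A match shows that the letters are there, not that a factor binds them. NBN and PRKDC were among the members not matched and so not searched. Of the matched members, H2AX, CHEK1, BRCA2, RBBP8, ERCC4 and FANCB held neither core and rose further than those printed from their class. The promoters printed here are those of the matched members with the largest rise that hold an E2F-like core. They are the leading 2 from homologous recombination and the leading 1 each from the Fanconi and the break sensing classes. They are RefSeq sequences of GRCh38.p14, read 5′ to 3′ on the strand of the gene, with every E2F-like core on either strand in capitals. BLM is at chr15:90717096-90717395 on the plus strand, RAD51D at chr17:35119709-35120008 on the minus strand, FANCD2 at chr3:10026187-10026486 on the plus strand and MDC1 at chr6:30717232-30717531 on the minus strand.
BLM: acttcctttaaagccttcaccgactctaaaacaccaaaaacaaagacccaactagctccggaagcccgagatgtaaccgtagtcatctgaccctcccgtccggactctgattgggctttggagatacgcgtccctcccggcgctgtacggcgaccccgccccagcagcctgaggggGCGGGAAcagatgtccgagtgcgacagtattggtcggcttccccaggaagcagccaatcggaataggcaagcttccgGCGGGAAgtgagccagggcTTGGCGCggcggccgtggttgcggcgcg
RAD51D: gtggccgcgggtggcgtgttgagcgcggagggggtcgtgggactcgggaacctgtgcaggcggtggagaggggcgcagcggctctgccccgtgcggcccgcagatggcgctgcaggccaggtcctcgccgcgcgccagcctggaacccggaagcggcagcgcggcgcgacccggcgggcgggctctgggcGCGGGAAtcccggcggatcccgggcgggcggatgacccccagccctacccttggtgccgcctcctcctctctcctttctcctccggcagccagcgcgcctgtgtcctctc
FANCD2: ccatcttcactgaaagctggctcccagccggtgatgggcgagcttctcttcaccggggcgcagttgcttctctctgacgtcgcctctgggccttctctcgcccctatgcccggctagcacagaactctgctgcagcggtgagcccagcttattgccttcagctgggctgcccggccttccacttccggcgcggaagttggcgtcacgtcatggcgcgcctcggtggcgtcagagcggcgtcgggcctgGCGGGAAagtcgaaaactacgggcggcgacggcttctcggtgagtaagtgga
MDC1: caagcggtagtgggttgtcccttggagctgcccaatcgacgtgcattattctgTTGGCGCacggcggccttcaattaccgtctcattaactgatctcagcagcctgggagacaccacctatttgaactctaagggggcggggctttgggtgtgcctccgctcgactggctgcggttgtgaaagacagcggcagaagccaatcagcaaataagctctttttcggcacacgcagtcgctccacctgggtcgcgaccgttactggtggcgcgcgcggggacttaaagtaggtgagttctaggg
BLM holds 3 cores, the one farthest upstream starting 74 bases before the start site and the others 3 and 22 bases after it. In RAD51D the core starts 60 bases, in FANCD2 it starts 2 bases and in MDC1 it starts 197 bases before the start site. Start sites here are those of the RefSeq promoters. The printed windows of RAD51D and MDC1 lie inside the GENCODE spans of these minus-strand genes, which begin at 35121522 and 30717889. Their distances therefore hold for the RefSeq start only.

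Within the MRN complex, which starts break sensing, NBN rose and its partners were not called. NBN, the subunit that binds ATM, was at 26 and 29.9 CPM in the controls, 75.6 and 71.2 CPM in colony 1 and 72.7 and 72.6 CPM in colony 2. Every knockdown library held more than 2 times the level of either control, and the colonies did not overlap with control. The log2 change of NBN was 1.36 (SE 0.083, adjusted p = 6.94e-13), with 28 ± 2.74 CPM in control, 73.4 ± 3.11 CPM in colony 1 and 72.7 ± 0.0262 CPM in colony 2 (SD, n = 2). The nuclease MRE11 was at 44.8 and 47.1 CPM in the controls, 40.3 and 41 CPM in colony 1 and 42.4 and 45.9 CPM in colony 2. Its change was −0.12 (95% interval −0.29 to 0.062). The ATPase RAD50 was at 81 and 81.4 CPM in the controls, 68.3 and 79.2 CPM in colony 1 and 74.1 and 80.1 CPM in colony 2. This gave a log2 change of −0.11 (95% interval −0.26 to 0.048). The colonies overlapped with the controls for MRE11, and for RAD50 all 4 knockdown libraries were slightly below both controls. Within a library, the log2 CPM of NBN minus the mean of MRE11 and RAD50 was −1.21 and −1.05 in the controls. In the knockdown libraries it was 0.26 to 0.53. That difference moved by 1.501. This difference and those of PRKDC and FANCD2 were chosen after their values were seen and are given without a test. By GENCODE annotation on GRCh38, NBN lies on chromosome 8 at 89933336 to 90003228 on the minus strand, MRE11 on chromosome 11 at 94415578 to 94493908 on the minus strand and RAD50 on chromosome 5 at 132556019 to 132646344 on the plus strand.

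H2AX and the checkpoint kinases CHEK1 and CHEK2 also rose. H2AX, the histone variant phosphorylated around a break, was at 109 and 110.5 CPM in the controls, 163 and 161 CPM in colony 1 and 162 and 169 CPM in colony 2. The fitted log2 change was 0.57 (SE 0.062, adjusted p = 2.80e-08). The libraries within each group lay close together and the groups did not overlap. H2AX mRNA exists with and without a poly(A) tail, and these libraries were made from messenger RNA. CHEK1, the kinase downstream of ATR, was at 36.6 and 40.9 CPM in the controls, 58.6 and 63.5 CPM in colony 1 and 50.8 and 59.2 CPM in colony 2. Its log2 change was 0.57 (SE 0.088, adjusted p = 7.01e-06). CHEK2, the kinase downstream of ATM, was at 13.6 and 16.4 CPM in the controls, 20.6 and 21.8 CPM in colony 1 and 20.2 and 21.6 CPM in colony 2. The log2 change was 0.47 (SE 0.12, adjusted p = 0.00227). Both stood above the controls in all 4 knockdown libraries. MDC1, the adaptor that binds phosphorylated H2AX, was at 18.9 and 21.9 CPM in the controls, 23.5 and 26.8 CPM in colony 1 and 32.9 and 32.5 CPM in colony 2. Its change was 0.47 (SE 0.11, adjusted p = 7.87e-04), with both colony 2 libraries above both colony 1 libraries. H2AX lies on chromosome 11 at 119093854 to 119095467 on the minus strand, CHEK1 on chromosome 11 at 125625136 to 125676255 on the plus strand, CHEK2 on chromosome 22 at 28687743 to 28742422 on the minus strand and MDC1 on chromosome 6 at 30699807 to 30717889 on the minus strand.

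ATR rose by a small margin and ATM was not called. ATR was at 37.4 and 39.6 CPM in the controls, 45.1 and 44.7 CPM in colony 1 and 45.5 and 43.6 CPM in colony 2. This gave a log2 change of 0.21 (SE 0.087, adjusted p = 0.0488). ATRIP, which tethers ATR to single-stranded DNA, changed by −0.038 (95% interval −0.39 to 0.32) and was among the least abundant members of this class at 8.2 CPM on average. ATM was at 131 and 135 CPM in the controls, 138 and 123 CPM in colony 1 and 152 and 153 CPM in colony 2. The fitted log2 change was 0.086 (95% interval −0.047 to 0.22), with colony 1 overlapping the controls and colony 2 above them. TOPBP1, the activator of ATR, rose by 0.33 (adjusted p = 0.00185). The subunits of the ring-shaped checkpoint clamp that brings TOPBP1 to the DNA rose together, HUS1 by 0.38 (adjusted p = 0.00956), RAD9A by 0.24 (adjusted p = 0.0175) and RAD1 by 0.20 (adjusted p = 0.0354), while RAD17, which loads the clamp, was at −0.022 (95% interval −0.19 to 0.15). Of the ubiquitin ligases that act on chromatin after MDC1, RNF8 was at 0.070 (95% interval −0.081 to 0.22) and RNF168 at 0.15 (95% interval −0.044 to 0.35), and TP53BP1, which reads their mark and shields ends from resection, was at −0.046 (95% interval −0.21 to 0.12). None of these 3 was called. Without control replicate 1, the calls of CHEK2 (0.34, adjusted p = 0.0747), HUS1 (0.36, adjusted p = 0.0667), TOPBP1 (0.22, adjusted p = 0.0876), RAD1 (0.14, adjusted p = 0.277) and ATR (0.17, adjusted p = 0.247) were lost, and without control replicate 2 those of RAD9A (0.14, adjusted p = 0.291) and ATR (0.25, adjusted p = 0.0724). ATR was also lost without each of the knockdown libraries (adjusted p = 0.069 to 0.115), and RAD1 without colony 1 replicate 2 (0.18, adjusted p = 0.108), colony 2 replicate 1 (0.19, adjusted p = 0.0752) or colony 2 replicate 2 (0.21, adjusted p = 0.0558).

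**Figure D3:**
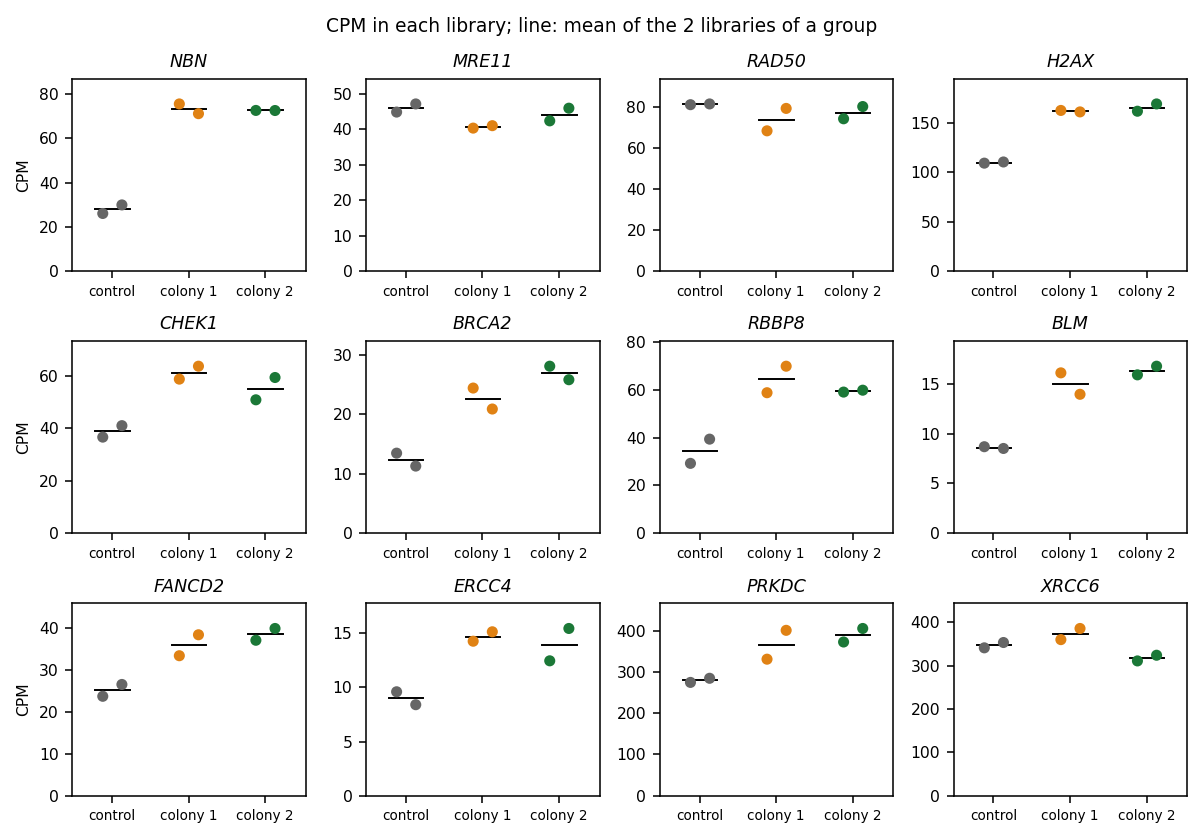
CPM of 12 members in each library, 2 per group, with the group mean as a line; axes start at 0. NBN, H2AX, CHEK1, BRCA2, RBBP8, BLM, FANCD2, ERCC4 and PRKDC lie above both controls in all 4 knockdown libraries, MRE11 and RAD50 do not, and XRCC6 lies above the controls in colony 1 and below them in colony 2.

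Homologous recombination genes held the largest median rise of the 4 classes. In colony 1 and likewise in colony 2, 10 of 16 were called higher, or 62.5%. Of all genes tested 21.1% were higher in colony 1 and 20.5% in colony 2. BRCA2, which acts on resected ends, was at 13.5 and 11.3 CPM in the controls, 24.4 and 20.9 CPM in colony 1 and 28.1 and 25.8 CPM in colony 2, or 2.0 times the control mean, a log2 change of 0.94 (SE 0.12, adjusted p = 4.07e-07). Its partner PALB2 was at 0.24 (95% interval −0.020 to 0.51) and was not called. BRCA1 rose by 0.65 (SE 0.098, adjusted p = 5.17e-06) and BARD1, the partner with which it forms a ubiquitin ligase, by 0.52 (SE 0.12, adjusted p = 5.38e-04). RBBP8, also called CtIP, which starts the resection of ends with MRN, was at 29.2 and 39.3 CPM in the controls, 58.7 and 69.8 CPM in colony 1 and 59 and 59.8 CPM in colony 2. Its log2 change was 0.84 (SE 0.10, adjusted p = 2.68e-07). In each of these called genes all 4 knockdown libraries exceeded both controls, though the 2 controls of RBBP8 were farther apart than its colony 2 libraries. EXO1, the nuclease that extends resection, was at 16.9 and 23.7 CPM in the controls, 20.8 and 24.1 CPM in colony 1 and 20.3 and 24.3 CPM in colony 2. The log2 change was 0.15 (95% interval −0.12 to 0.42). It was not called, and its groups overlapped. BLM, a helicase that acts in resection and in dissolving joined intermediates, was at 8.68 and 8.51 CPM in the controls, 16.1 and 13.9 CPM in colony 1 and 15.9 and 16.8 CPM in colony 2. Its change was 0.79 (SE 0.13, adjusted p = 2.51e-05), while the related helicase WRN was at 0.096 (95% interval −0.14 to 0.33). BRCA2 lies on chromosome 13 at 32315474 to 32400266 on the plus strand, RBBP8 on chromosome 18 at 22798261 to 23026488 on the plus strand and BLM on chromosome 15 at 90717327 to 90816165 on the plus strand.

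RAD51B, RAD51C, RAD51D, XRCC2 and XRCC3, a family of recombination proteins, gave 3 calls among 5 genes, where 23.2% of all genes tested were higher. RAD51D was at 3.58 and 3.0 CPM in the controls, 5.83 and 5.86 CPM in colony 1 and 7.01 and 7.24 CPM in colony 2. This gave a log2 change of 0.80 (SE 0.18, adjusted p = 6.43e-04), with all 4 knockdown libraries above both controls. XRCC2, which binds RAD51D, rose by 0.66 (SE 0.097, adjusted p = 3.37e-06) and XRCC3 by 0.30 (SE 0.079, adjusted p = 0.00292). RAD51C, which joins RAD51D and XRCC2 in one complex and XRCC3 in another, was at 0.12 (95% interval −0.16 to 0.39), and RAD51B at 0.15 (95% interval −0.24 to 0.53). Neither was called. RAD54L, a motor protein of strand invasion, was at 17.1 and 25 CPM in the controls, 36.6 and 34.9 CPM in colony 1 and 34.1 and 37.4 CPM in colony 2. The fitted log2 change was 0.76 (SE 0.12, adjusted p = 1.25e-05), and its relative RAD54B, at 4.38 CPM on average, was at 0.31 (95% interval −0.11 to 0.72). RAD51AP1, which stimulates the joining step, was at 18 and 28 CPM in the controls, 31.5 and 34.9 CPM in colony 1 and 31.8 and 32.4 CPM in colony 2. Its log2 change was 0.52 (SE 0.13, adjusted p = 0.00203). For both RAD54L and RAD51AP1 the controls lay far apart, with control replicate 2 nearer to the knockdown libraries. Without control replicate 1, RAD54L stood at 0.50 (adjusted p = 0.00146) and the call of RAD51AP1 (0.21, adjusted p = 0.2) was lost, and without control replicate 2 RAD51AP1 stood at 0.83 (adjusted p = 1.80e-06), and PALB2 (0.41, adjusted p = 0.0387) and EXO1 (0.39, adjusted p = 0.0415) were called. RAD51D lies on chromosome 17 at 35092208 to 35121522 on the minus strand and RAD54L on chromosome 1 at 46247688 to 46278473 on the plus strand.

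In the Fanconi and crosslink repair class 8 of 14 genes rose, or 57.1% against 23.2% of all genes tested. FANCD2, which is ubiquitinated and clamped onto DNA as the central step of the pathway, was at 23.7 and 26.5 CPM in the controls, 33.4 and 38.4 CPM in colony 1 and 37.1 and 39.9 CPM in colony 2. The log2 change was 0.55 (SE 0.10, adjusted p = 6.65e-05). FANCI, its partner in the clamp, was at 71.4 and 86.3 CPM in the controls, 89.3 and 106 CPM in colony 1 and 83.5 and 85.4 CPM in colony 2. Its change was 0.21 (SE 0.082, adjusted p = 0.0435). Its groups overlapped. The log2 CPM of FANCD2 minus FANCI was −1.59 and −1.702 in the controls. It was −1.47 to −1.098 after knockdown. Among the subunits of the core complex, which ubiquitinates the clamp, FANCB, FANCE, FANCF and FANCG rose and FANCA, FANCC, FANCL and FANCM were not called. FANCB, which holds the catalytic module, was at 6.84 and 6.01 CPM in the controls, 9.05 and 10.1 CPM in colony 1 and 8.88 and 12.1 CPM in colony 2. This gave a log2 change of 0.56 (SE 0.16, adjusted p = 0.00578). FANCF, an adaptor of the complex, was at 9.09 and 7.81 CPM in the controls, 13.4 and 10.3 CPM in colony 1 and 11.7 and 10.4 CPM in colony 2. The fitted log2 change was 0.39 (SE 0.15, adjusted p = 0.0368). For both, all 4 knockdown libraries were above both controls. FANCG was at 35.4 and 36.6 CPM in the controls, 44.2 and 47.4 CPM in colony 1 and 44.4 and 47.8 CPM in colony 2. Its log2 change was 0.34 (SE 0.088, adjusted p = 0.00238), and FANCE, which contacts FANCD2, rose by 0.33 (SE 0.098, adjusted p = 0.00817). FANCA was at 0.13 (95% interval −0.020 to 0.28), with all 4 knockdown libraries above both controls, FANCC at 0.067 (95% interval −0.17 to 0.30), and FANCL, the ligase subunit, at 0.052 (95% interval −0.17 to 0.28). FANCM, the translocase that anchors the complex, was at −0.13 (95% interval −0.39 to 0.13), the lowest of the class.

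The nucleases and the helicase that act after the clamp gave calls for ERCC4 and BRIP1. ERCC4, also called XPF, the nuclease that unhooks crosslinks, was at 9.6 and 8.41 CPM in the controls, 14.3 and 15.2 CPM in colony 1 and 12.5 and 15.5 CPM in colony 2. The log2 change was 0.61 (SE 0.14, adjusted p = 8.15e-04). ERCC1, with which it forms an obligate pair, was at 77.8 and 68.5 CPM in the controls, 72.6 and 73.3 CPM in colony 1 and 74.6 and 78.6 CPM in colony 2. Its change was 0.034 (95% interval −0.12 to 0.19), and SLX4, the scaffold that holds them, was at 0.064 (95% interval −0.20 to 0.33). Neither ERCC1 nor SLX4 was called, and the groups of ERCC1 overlapped. BRIP1, also called FANCJ, the helicase that binds BRCA1, was at 26.3 and 31.8 CPM in the controls, 31.3 and 38.2 CPM in colony 1 and 35 and 34.8 CPM in colony 2. This gave a log2 change of 0.26 (SE 0.11, adjusted p = 0.0492). Its groups overlapped too. Without control replicate 1, the calls of FANCE (0.29, adjusted p = 0.0696), FANCI (0.071, adjusted p = 0.598) and BRIP1 (0.12, adjusted p = 0.489) were lost, and without control replicate 2 those of FANCB (0.48, adjusted p = 0.0611) and FANCF (0.30, adjusted p = 0.241), while FANCI stood at 0.34 and BRIP1 at 0.39 there. FANCF was also lost without colony 1 replicate 1 (0.31, adjusted p = 0.13) or colony 2 replicate 1 (0.35, adjusted p = 0.0952), BRIP1 without colony 1 replicate 2 (0.19, adjusted p = 0.189), colony 2 replicate 1 (0.25, adjusted p = 0.0819) or colony 2 replicate 2 (0.26, adjusted p = 0.0783), and FANCI without the same 3 libraries (0.14 to 0.21, adjusted p = 0.0523 to 0.17). FANCD2 lies on chromosome 3 at 10026414 to 10101930 on the plus strand, ERCC4 on chromosome 16 at 13920157 to 13952345 on the plus strand, FANCB on chromosome X at 14835961 to 14873069 on the minus strand, FANCF on chromosome 11 at 22622890 to 22625841 on the minus strand and FANCG on chromosome 9 at 35073835 to 35080016 on the minus strand.

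End joining was the class with the fewest calls, 1 of 6 tested, or 16.7% against 23.2% higher among all genes tested. PRKDC, the catalytic subunit of the DNA-dependent protein kinase, was at 275 and 285 CPM in the controls, 332 and 402 CPM in colony 1 and 374 and 407 CPM in colony 2. The fitted log2 change was 0.43 (SE 0.066, adjusted p = 1.09e-05). All 4 knockdown libraries were above both controls, although colony 1 replicate 1 was lower than the other 3. The Ku proteins that recruit it were not called in the mean of both colonies. XRCC5, also called Ku80, was at 242 and 258 CPM in the controls, 255 and 286 CPM in colony 1 and 252 and 266 CPM in colony 2. Its log2 change was 0.082 (95% interval −0.044 to 0.21). XRCC6, also called Ku70, was at 341 and 354 CPM in the controls, 360.4 and 386 CPM in colony 1 and 311 and 324 CPM in colony 2. The log2 change was −0.014 (95% interval −0.13 to 0.10). The log2 CPM of PRKDC minus the mean of the Ku genes was −0.060 and −0.081 in the controls. After knockdown it was 0.13 to 0.47. LIG4, the ligase that seals the ends, was at 19.8 and 13.5 CPM in the controls, 18.7 and 16.1 CPM in colony 1 and 16 and 17.2 CPM in colony 2. Its change was 0.046 (95% interval −0.24 to 0.33). Its partner XRCC4 was at −0.071 (95% interval −0.32 to 0.18), and neither was called. POLQ, the polymerase of microhomology-mediated joining, was at 14.9 and 17.3 CPM in the controls, 16.5 and 21.7 CPM in colony 1 and 19.6 and 20.9 CPM in colony 2. This gave a log2 change of 0.27 (95% interval 0.008 to 0.53). The adjusted p of POLQ was 0.0872, and it became 0.0397 with the replicate number as a block and 0.0229 without colony 1 replicate 1. PRKDC lies on chromosome 8 at 47773108 to 47960183 on the minus strand.

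The members span a wide range of levels. Per kilobase of annotated exon, so that genes of different length can be set side by side, control levels were led by XRCC6 at 106 CPM per kb, H2AX at 68.1, XRCC5 at 45.7, PRKDC at 18.2 and RAD17 at 15.1. The lowest were NHEJ1 at 0.130, RAD51D at 0.291, RAD54B at 0.684, RAD51B at 0.738 and BRCA2 at 1.01 CPM per kb. Within the MRN complex the order of these levels changed, from RAD50 at 8.31, MRE11 at 5.98 and NBN at 4.55 in control to NBN at 11.9, RAD50 at 7.72 and MRE11 at 5.52 CPM per kb in the knockdown. BRCA2 went from 1.01 to 2.02 and BRCA1 from 2.75 to 4.37 CPM per kb, so BRCA2 remained the lower of the pair. Exon lengths are the union of all annotated transcripts, which may differ from those made in these cells.

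Each colony was also set against the controls, which both comparisons share. In colony 1, 23 of 54 were higher and 0 lower, against 21.1% and 18.3% of all genes tested, and in colony 2, 25 were higher and 0 lower, against 20.5% and 19.8%. Without adjustment, at p under 0.05, limma gave 29 and 27 higher members and 0 lower in each. NBN changed by 1.36 in colony 1 and 1.35 in colony 2, BRCA2 by 0.82 and 1.07, CHEK1 by 0.64 and 0.49, FANCD2 by 0.50 and 0.60, and PRKDC by 0.38 and 0.47. Some members passed in 1 colony only. RAD1 was at 0.29 (adjusted p = 0.0109) in colony 1 and 0.11 (adjusted p = 0.335) in colony 2, and FANCI at 0.31 (adjusted p = 0.0117) and 0.10 (adjusted p = 0.401). ATM was at −0.025 (adjusted p = 0.819) in colony 1 and 0.20 (adjusted p = 0.0361) in colony 2, HUS1 at 0.34 (adjusted p = 0.0505) and 0.43 (adjusted p = 0.0134), MDC1 at 0.29 (adjusted p = 0.0678) and 0.66 (adjusted p = 1.25e-04), and RAD9A at 0.22 (adjusted p = 0.0661) and 0.27 (adjusted p = 0.0271). With the replicate number as a block, ATR, RAD9A, HUS1, MDC1, BRIP1 and FANCF were also called in colony 1 (adjusted p = 0.0234 to 0.0446), and in colony 2 BRIP1 (adjusted p = 0.0296) and POLQ (adjusted p = 0.0396) were higher and XRCC6 was lower (adjusted p = 0.0259). Over all genes the block moved calls in either direction from 5381 to 6398 in colony 1 and from 5512 to 6570 in colony 2. Without colony 1 replicate 2 fewer members were higher in colony 1, and without colony 2 replicate 2 fewer in colony 2. Each of these fits leaves 1 library in that colony, and the same counts over all genes tested are not given here.

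Set directly against each other, the colonies differed in 0 of 54 members by limma, with 2 higher and 2 lower in colony 2 at an unadjusted p under 0.05, where 0.629% of all genes tested were called higher, 1.65% lower and 2.28% either way. XRCC6 came nearest, at −0.23 (SE 0.065, adjusted p = 0.0572), followed by ATM at 0.22 (SE 0.075, adjusted p = 0.134) and MDC1 at 0.37 (SE 0.12, adjusted p = 0.138), both higher in colony 2. With the replicate number as a block these 3 were called by limma (adjusted p = 5.66e-04, 0.0102 and 0.0289). So were 1036 genes in all against 312 without it. The titles do not say that same-numbered libraries were paired. XRCC6 was also called by limma with trimmed mean scaling (−0.25, adjusted p = 0.0284). It was called too when either control was left out, which kept the difference at −0.23. It was not called when any colony library was left out, with differences from −0.28 to −0.18. For NBN the difference between the colonies was −0.014 (95% interval −0.21 to 0.18), for H2AX 0.031 (95% interval −0.12 to 0.18) and for RAD54L −0.0012 (95% interval −0.29 to 0.28).

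Further genes of the same pathways were taken from lists set beside the members. Among all genes tested 23.2% were higher and 21.5% lower. The shares higher were 47.1% of the further checkpoint, 37.9% of the recombination, 36.4% of the Fanconi and 71.4% of the end joining genes. The shares lower were 0, 3.4%, 18.2% and 0 in the same order. Of 17 further checkpoint genes 8 rose and 0 fell, also by limma without adjustment (median log2 change 0.17), led by CDC25B, a phosphatase that drives entry into mitosis, at 0.69 (adjusted p = 4.76e-10) and TTI2, which stabilises ATM and ATR, at 0.69 (adjusted p = 3.18e-04). Of 29 further recombination genes 11 rose and 1 fell (median 0.22). EME1, the partner of the MUS81 nuclease, rose by 0.75 (adjusted p = 7.11e-06), GEN1, which resolves crossed strands, by 0.70 (adjusted p = 5.31e-05), and BABAM1, a subunit of the BRCA1-A complex, was at −0.41 (adjusted p = 0.0047). By limma BABAM1 was at −0.14 (adjusted p = 0.442) in colony 1, which overlapped the controls, and at −0.68 (adjusted p = 1.58e-04) in colony 2. Of 11 further Fanconi genes 4 rose and 2 fell (median 0.19). FAAP24, a partner of FANCM, rose by 0.75 (adjusted p = 0.00971) and RFWD3, a ubiquitin ligase, by 0.70 (adjusted p = 1.37e-07). WDR48, which activates the deubiquitinase USP1, fell by 0.54 on the log2 scale (adjusted p = 3.32e-06) and the nuclease FAN1 was at −0.26 (adjusted p = 0.0265). By limma FAAP24 was at 0.52 (adjusted p = 0.12) in colony 1 and 0.97 (adjusted p = 0.00476) in colony 2, and its groups overlapped. FAAP24 stood at 0.26 (adjusted p = 0.449) when control replicate 1 was left out and at 1.24 without control replicate 2, and GEN1 at 0.44 and BABAM1 at −0.36 without control replicate 1 (adjusted p = 0.0101 and 0.0664). FAN1 stood at −0.21 without control replicate 1 (adjusted p = 0.209), −0.26 without colony 1 replicate 2 (adjusted p = 0.0542) and −0.24 without colony 2 replicate 1 (adjusted p = 0.0715). In end joining 10 of 14 further genes rose and 0 fell, also by limma without adjustment (median 0.47), with PAXX, a paralog of XRCC4 that binds Ku, at 0.92 (adjusted p = 2.07e-08) and CYREN, which modulates Ku, at 0.75 (adjusted p = 2.49e-08). Their summed CPM was 1.42 to 1.6 times the control mean in the knockdown libraries. The median of these further end joining genes lay above that of the further recombination genes, at 0.47 against 0.22. Among the members the order was reversed, at 0.064 for end joining against 0.52 for homologous recombination. These differences were not tested.

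In the repair pathways that act on bases and bulky lesions, counts are given beside the 23.2% higher and 21.5% lower among all genes tested. Of 7 mismatch repair genes 0 were called by limma, with 2 higher and 0 lower at an unadjusted p under 0.05, and their log2 changes ran from −0.20 to 0.26 (median −0.081). In base excision repair 6 of 13 rose and 2 fell, or 46.1% and 15.4% (median 0.10), with the glycosylases MUTYH at 1.13 (adjusted p = 2.38e-07) and NEIL3 at 1.03 (adjusted p = 2.89e-06) in front and NEIL1 at −0.52 (adjusted p = 0.00225) and MBD4 at −0.26 (adjusted p = 0.0487) lower. In nucleotide excision repair 2 of 17 tested rose and 5 fell, or 11.8% and 29.4% (median 0.015). XPA, which verifies the lesion, was at −0.70 (adjusted p = 5.56e-05) and CETN2, a subunit of the damage sensor, at −0.47 (adjusted p = 3.21e-04), while ERCC8 was at 0.37 (adjusted p = 0.0452) and GTF2H1 at 0.26 (adjusted p = 0.00594). MBD4 lost its call without 5 of the 6 libraries, all but colony 1 replicate 2 (adjusted p = 0.054 to 0.251), ERCC8 without control replicate 2 (0.19, adjusted p = 0.445), colony 1 replicate 2 (adjusted p = 0.0831) or colony 2 replicate 2 (adjusted p = 0.152), and GTF2H1 without control replicate 1 (0.15, adjusted p = 0.205). The difference between these lists was not tested.

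**Figure D4:**
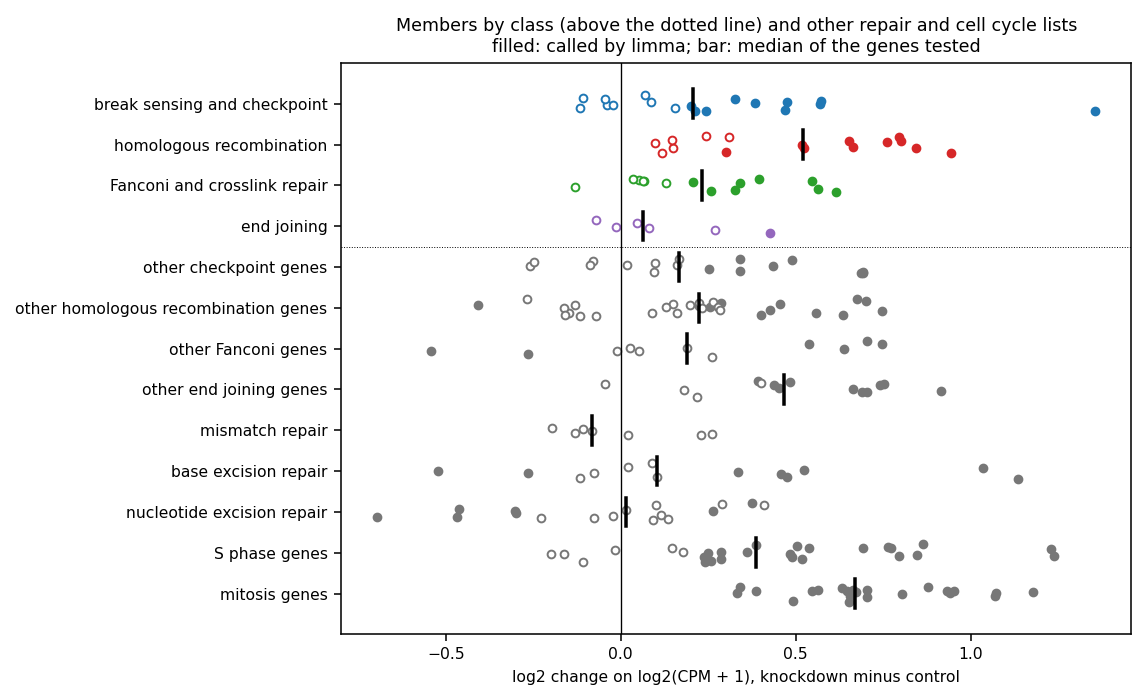
Log2 change on the log2(CPM + 1) scale, knockdown minus control, of each gene tested in the 4 member classes and in 9 other repair and cell cycle lists; filled points were called by limma and bars mark the medians. The medians run from −0.081 for mismatch repair to 0.67 for mitosis genes, with homologous recombination at 0.52.

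Several members share genomic ground with other genes, and the sources used here do not give the strand handling of the counting. Reads of the neighbours may be among theirs. On the opposite strand, exons of RAD9A overlap 228 nt of PPP1CA (241 CPM), those of RAD54L 806 nt of LRRC41 (98.3 CPM), those of XRCC3 5756 nt of KLC1 (37.7 CPM), those of RAD1 482 nt of BRIX1 (54.8 CPM) and those of FANCI 458 nt of POLG (99.4 CPM). Members that were not called overlap such genes too, among them ERCC1 with 1593 nt of CD3EAP and TP53BP1 with 3732 nt of TUBGCP4 (31 CPM). FANCA overlaps 2302 nt of ZNF276 (51 CPM), MRE11 225 nt of ANKRD49 (22 CPM) and RAD17 210 nt of AK6 (103 CPM). CHEK2, MDC1, FANCD2, FANCF and ERCC4 also have an exonic antisense partner. CHEK1 shares 80 nt with STT3A and RAD51D 905 nt with a readthrough transcript on the same strand. Also on the same strand, RAD50 shares 7784 of its 9771 exonic nt with the protein-coding AC116366.3, and ATRIP shares 1515 nt with TREX1 (4.78 CPM), so the values of RAD50 and ATRIP are uncertain in the same way. On the same strand too, NHEJ1 shares 2034 of its 3109 exonic nt with the protein-coding AC068946.1. RAD54B likewise shares 3139 of its 5313 exonic nt with FSBP (0.062 CPM). The low values of NHEJ1, which left it untested, and of RAD54B are therefore uncertain as well. Pseudogenes named after members held at most 0.509 CPM on average (XRCC6P2).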

How the data were processed

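Messenger RNA of MDA-MB-231 cells was sequenced in 6 libraries, 2 each of control, colony 1 and colony 2. The authors deposited 1 table of gene values in CPM. Per the submitters' processing notes, Trim Galore and HISAT2 were used, without versions, and the notes name both hg38 and mm10; the sources used here do not give the counting tool, its strand handling or the annotation. The table has 52142 rows. The 15200 rows without a symbol (2.50 to 2.62% of the CPM of a library) and the 10 rows that shared 5 symbols were left out, which leaves 36932 genes. Every value was a whole multiple of the smallest value of its library within 1e-06, and 1 such step was 0.0815 to 0.108 CPM. The CPM sums divided by that step gave 8843847 to 11902437 reads in the rows of the table.

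The 13675 genes that averaged 1 CPM or more were tested on log2(CPM + 1), a scale that understates changes of low genes. limma 3.58.1 in R 4.3.3 with an intensity trend and robust moderation was fitted to all 3 groups, which share the spread, with two-sided p-values adjusted by Benjamini-Hochberg over all genes tested and calls at 0.05. Knockdown against control is the mean of both colonies minus control. As nothing says that replicates were separate cultures, p-values here reflect only library-to-library spread, which may be technical. Replicates of a group differed by more than sampling noise (chi-square per degree of freedom 3.15 to 3.46), so none was a library deposited again. The columns of colony 2 carry another colony number than its titles, and each sample's description, which matches a column name, ties that column to its title. The replicate numbers come from the titles. Deviations of same-numbered libraries correlated weakly across genes, at 0.119, 0.128 and 0.159 for the 3 pairs of groups. The titles give a number only, so whether same-numbered libraries were paired is not known. The main fit has no block, and a fit with the number as a block was an alternative. Other alternatives were the filter, the pseudocount, other scalings, the knockdown libraries as 1 group, and leaving out each library. The code was tested on simulated data.

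The members and the other lists were chosen with earlier results of these data known. Named with full values are, in each class, the 5 called members with the largest change, and of each other list at most the 2 called genes with the largest change in each direction; further library values were added where partners of a complex are compared, chosen after their values were seen. Positions are from GENCODE on GRCh38. H2AX was matched by its Ensembl identifier.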

Additional observations from a re-analysis of the deposited data

Results flagged for a closer look

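XRCC6 differed between the colonies by −0.23 on the log2 scale (colony 2 minus colony 1), because both colony 1 libraries lay above both controls, at 360.4 and 386 CPM against 341 and 354 CPM, and both colony 2 libraries below them, at 311 and 324 CPM. The adjusted p of that difference was 0.0572 by limma and 5.66e-04 with the replicate number as a block, and over the other alternatives it ran from 0.0284 to 0.397. MAD2L2, the shield and polymerase zeta subunit also called REV7, stood on opposite sides in the same way, at 48.0 and 45.9 CPM in colony 1 and 40.8 and 38.4 CPM in colony 2 against 45.5 and 41.4 CPM in the controls. Its difference was −0.24 (limma adjusted p = 0.271).

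SEM1, a small protein that binds BRCA2 and is also a proteasome subunit, was at 60.3 and 64.6 CPM in the controls, 70.3 and 70.2 CPM in colony 1 and 46.7 and 41.9 CPM in colony 2. The colonies differed by −0.65 (limma adjusted p = 5.16e-05). BABAM1 was at 25.9 and 24.0 CPM in the controls, 24.0 and 21.3 CPM in colony 1 and 15.6 and 14.8 CPM in colony 2. The colonies differed by −0.55 (limma adjusted p = 0.0217), a call that was lost without colony 1 replicate 1 (−0.46, adjusted p = 0.187), colony 2 replicate 1 (−0.58, adjusted p = 0.098) or colony 2 replicate 2 (−0.51, adjusted p = 0.159).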

How the results depend on the processing

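Over 14 alternatives the count of members higher in the knockdown ran from 20 (without control replicate 1) to 30 (replicate block), against 29, and 0 were lower in each. Of the 29, 17 were called in every alternative in which they were tested and 12 were lost in at least 1. With the 4 knockdown libraries as 1 group the count was 25. The count of higher genes over all 13675 genes tested moved in the same direction. It was 3171 in the main fit, 3642 with the replicate block and 2836 with the knockdown libraries as 1 group. Without control replicate 1 it was also lower than in the main fit. The 2 planned count models on reads were not run. Every value was a whole multiple of the step of its library within 1e-06, but in 3 of the 6 columns that step lies close to 0.1 CPM. For these columns the check that was set did not accept the values as whole reads, so the read totals given here are implied ones. Beyond the calls given in the report, the replicate block changed no other call of a member; it moved the count in colony 2 to 1 lower and, between the colonies, to 2 higher and 1 lower, and 1 was lower between the colonies with trimmed mean scaling.

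Leaving out 1 library gave 15 to 24 higher members in colony 1, 15 to 25 in colony 2, and 0 to 1 lower between the colonies. The median log2 change ran from 0.16 to 0.23 for break sensing and checkpoint, 0.35 to 0.65 for homologous recombination, 0.12 to 0.32 for the Fanconi class, 0.042 to 0.10 for end joining, and for homologous recombination between the colonies from −0.020 to 0.13. For the classes other than end joining the lowest value came without control replicate 1 and the highest without control replicate 2. Among members that were not called, the sign turned in some of these runs, with log2 changes that ranged over the 6 left-out libraries as follows. The ranges covered 0 for ATRIP (−0.28 to 0.21), RAD17 (−0.070 to 0.026), EXO1 (−0.084 to 0.39), RAD51C (−0.0049 to 0.24) and FANCC (−0.051 to 0.18). They did so as well for FANCL (−0.082 to 0.19), SLX4 (−0.083 to 0.21), ERCC1 (−0.058 to 0.13), XRCC4 (−0.18 to 0.037), XRCC6 (−0.039 to 0.012) and LIG4 (−0.21 to 0.31). The cause was not tested.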
